A study of Homo sapiens with 4 samples.

Results

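The genes described here build the DNA replication machinery and carry the cell into S phase. A list of 55 gene symbols defined them, and all 55 were found among the 23228 symbols of the count tables. All 55 also had enough counts to be tested, among 12706 tested genes. Cells of ES2, a human ovarian cancer cell line, received EC359, a small-molecule inhibitor of the LIF receptor LIFR, at 10 nM for 12 h, or vehicle (0.1% DMSO) for the same time. Both treatments shared the line and its RPMI medium with serum, and each had 2 libraries. The study describes the replicates of its RNA-seq as biologically independent, the labels do not say how they were cultured, and p-values measure the spread between these libraries.

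Before a cell can copy its DNA, the origin recognition complex with CDC6 and CDT1 loads the MCM2 to MCM7 ring on chromatin in G1, a step called licensing. Cyclin E with its kinase partner and the E2F transcription factors then drive entry into S phase, where CDC45 and the GINS complex turn the ring into an active helicase. Polymerases, the PCNA clamp, nucleotide-making enzymes and chromatin assembly factors follow, and many of their genes carry E2F sites in their promoters.

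After EC359, 49 of the 55 genes had a higher mean than with vehicle. The median log2 fold change of the 55 was 0.13, beside 0.0029 over all tested genes. The differences were small. They ran from -0.10 for POLD2 to 0.33 for LIG1, which is a change of 25.9% at most. The 55 genes together made up 6145 and 6192 CPM (counts scaled to the total on genes) in vehicle replicates 1 and 2, and 6814 and 6812 CPM in EC359 replicates 1 and 2. Both EC359 libraries thus lay above both vehicle libraries in the summed count. In bulk RNA, more cells that express a gene and more RNA per cell cannot be told apart.

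Short stretches of promoter show letters that were more frequent in these genes than in all promoters and were not used to choose them. Many replication genes are known to carry E2F sites, so a share above that of all promoters is no independent finding. Promoter sequences of RefSeq (GRCh38.p14), from 250 bases before to 50 bases after an annotated start, were matched by symbol for 46 of the 55 genes. Where a symbol had several promoters, only the first listed was searched, whereas the 35116 promoters below include all of them. They were searched on both strands for the E2F letters TTTCCCGC, TTTCGCGC, TTTGCCGC and TTTGGCGC, where matches may overlap. A match stood in 21 of the 46 promoters (45.7%), against 3.31% of 35116 RefSeq promoters and 5.43% of the 8818 promoters matched to tested genes. Of 20 promoters from a list of G2 and mitosis genes, 2 held a match. The 21 genes with a match had a median log2 fold change of 0.14, and the 25 without it had 0.096. The difference between these medians was not tested. Stretches of 40 bases before the start are printed for 4 genes with an adjusted p under 0.05 (TYMS, PCNA, POLA1, LIG1) and for 2 genes that hold the letters and showed little or a negative difference (MCM6, E2F1). They read 5′ to 3′ along the gene's strand, and capitals mark 1 match in each.
TYMS, chr18:657598-657637, plus strand: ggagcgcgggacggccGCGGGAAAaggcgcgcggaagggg
PCNA, chr20:5126658-5126697, minus strand: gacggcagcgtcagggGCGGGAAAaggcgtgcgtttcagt
POLA1, chrX:24693765-24693804, plus strand: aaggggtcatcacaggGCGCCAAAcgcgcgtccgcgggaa
LIG1, chr19:48170435-48170474, minus strand: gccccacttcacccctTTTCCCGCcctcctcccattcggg
MCM6, chr2:135876572-135876611, minus strand: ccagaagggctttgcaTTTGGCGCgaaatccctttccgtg
E2F1, chr20:33686395-33686434, minus strand: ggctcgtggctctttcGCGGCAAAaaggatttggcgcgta

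The capitals of TYMS begin 39 bases before its start and those of PCNA 59 bases before. MCM6 held 4 matches in its window, in 2 overlapping pairs, of which the stretch shows 1 pair with its first match in capitals. The stretch of E2F1 also holds the other match of its window, TTTGGCGC, in lower case near its end. The letters were therefore present both in genes with the clearest differences and in genes without them. GINS1 and CDC6, also with an adjusted p under 0.05, each held 1 match that lies after the start, where no stretch was printed. RRM2, with an adjusted p under 0.05, had no match in the promoter searched. For MCM5, DNA2 and CCNE2, also under 0.05, no promoter sequence was matched. A match of letters is a description of the window and not a site shown to be bound.

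Reads were counted per gene symbol by the authors, without normalization. Counts on genes were 25603886 and 25572494 in the vehicle libraries and 31707553 and 29914788 in the EC359 libraries, so both EC359 libraries were deeper. Normalized counts below are scaled with TMM factors to the mean library size, and the treatments were tested with edgeR's quasi-likelihood method. A gene was called at an adjusted p under 0.01 over all tested genes, with any fold change. The epithelial keratins KRT7 and KRT18 and the intermediate filament gene VIM were present in every library, whereas EPCAM and CDH1 had at most 2.22 normalized counts. Of the blood and endothelial markers examined, PTPRC, CD3E, PECAM1 and VWF had at most 2.22, and CDH5, which encodes VE-cadherin, had 3465 to 3704. LIFR had 1475 to 1612 normalized counts and a log2 fold change of 0.062 (adjusted p = 0.555 from edgeR).

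Of the 55 genes, TYMS and GINS1 were called higher and 0 were called lower. Over all tested genes, 0.299% were called higher and 0.795% lower. Scaled by total counts alone, the calls over all genes shifted from 38 higher and 101 lower to 52 higher and 68 lower, and 3 of the 55 were called higher. At an unadjusted p under 0.05, 1 of the 55 was lower, and none was called lower with DESeq2, edgeR's exact test or limma voom. At an adjusted p under 0.05, 10 of the 55 were higher (18.2%) and 0 lower, where 1.68% of all tested genes were higher and 2.64% lower. At an unadjusted p under 0.05, 29 of the 55 were higher (52.7%) against 10.7% of all tested genes, and the 1 that was lower (1.82%) stood against 11.0%. Both EC359 libraries lay above both vehicle libraries in 40 of the 55 genes (72.7%) and below in 3 (5.45%), where 26.1% and 25.4% of all tested genes did so.

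The shift was present in each comparison of 1 EC359 library with 1 vehicle library. EC359 replicate 1 was higher than vehicle replicate 1 in 50 of the 55 genes, and higher than vehicle replicate 2 in 46. EC359 replicate 2 was higher in 47 and 46 genes respectively. Over all tested genes these shares lay between 49.9% and 51.6%. These comparisons share libraries and are no independent repeats. The number of called genes depended on the libraries. Without vehicle replicate 1 it was 5, where 134 of all tested genes were called higher, and without vehicle replicate 2 it was 11, where 256 were. With either EC359 library left out it was 0, where all tested genes had 0 and 2 calls.

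**Figure D1:**
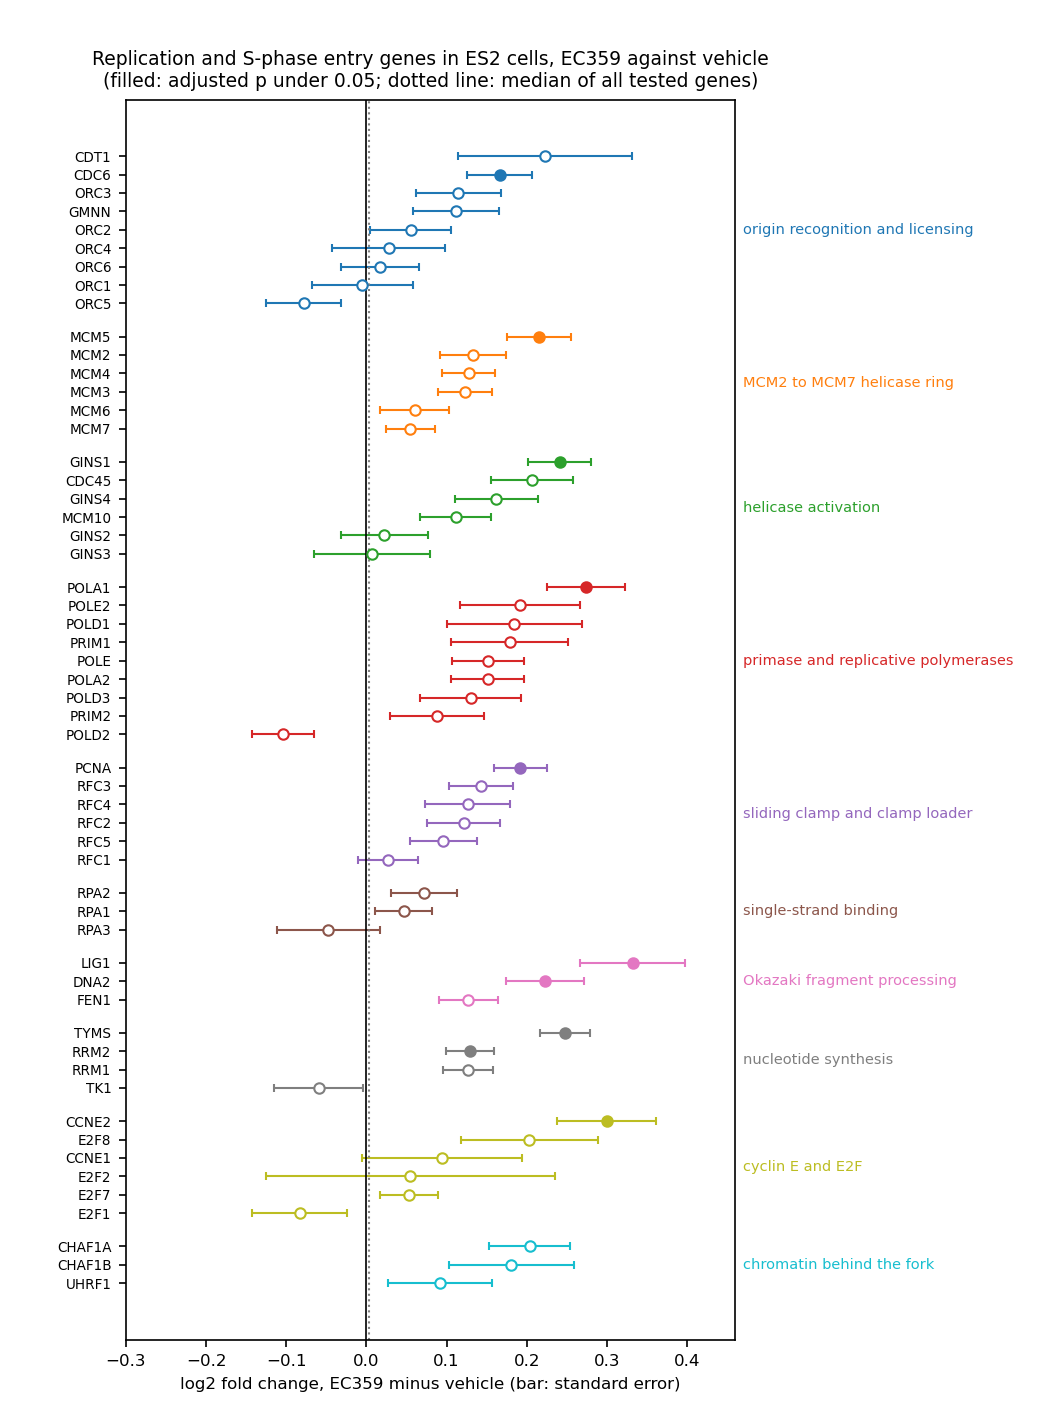
Log2 fold change (EC359 minus vehicle) of all 55 genes, grouped by role, with bars for the standard error, filled points for an adjusted p under 0.05 and a dotted line at the median of all tested genes. Most points lie right of 0, and the 6 to the left are ORC1, ORC5, POLD2, RPA3, TK1 and E2F1.

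Nucleotide supply held the gene with the lowest adjusted p. TYMS encodes thymidylate synthase, which makes the thymidine building block of DNA, and lies on chromosome 18 of GRCh37 from 657653 to 673578. It had 12357 and 12163 normalized counts with vehicle and 14754 and 14366 with EC359. The EC359 libraries did not overlap with the vehicle libraries, and TYMS rose (log2 fold change 0.25, standard error 0.031, adjusted p = 0.00327). Exons of ENOSF1 and TYMSOS lie opposite 47.9% of its annotated exon bases, and the strand setting of the counting is not given in the sources used here. ENOSF1 had 1844 and 1847 normalized counts with vehicle and 1880 and 1870 with EC359 (log2 fold change 0.023, adjusted p = 0.823), so it differed little between treatments. TYMSOS, listed as C18orf56, was rare, with 24.5 and 23.4 with vehicle and 11.5 and 19.6 with EC359 (log2 fold change -0.63, adjusted p = 0.337 from edgeR).

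RRM1 and RRM2 encode the large and small subunits of ribonucleotide reductase, which turns ribonucleotides into deoxyribonucleotides. RRM2 had 11158 and 11138 normalized counts with vehicle and 12181 and 12202 with EC359, without overlap (log2 fold change 0.13, standard error 0.030, adjusted p = 0.0407). RRM1 differed by the same 0.13 on the log2 scale (adjusted p = 0.0521). TK1, the thymidine kinase that salvages thymidine, went apart from them. Its libraries overlapped, at 1913 and 2118 with vehicle and 1923 and 1944 with EC359, and the log2 fold change was -0.060 (adjusted p = 0.582).

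The helicase activators followed. GINS1, a subunit of the GINS complex that travels with the MCM ring, lies on chromosome 20 of GRCh37 from 25371644 to 25433336. It had 2921 and 2981 normalized counts with vehicle and 3469 and 3507 with EC359, and it rose without overlap (log2 fold change 0.24, standard error 0.039, adjusted p = 0.00929). This call was lost with no filter on low counts (adjusted p = 0.0189). CDC45, the other partner of the active helicase, had 1650 and 1588 with vehicle and 1903 and 1833 with EC359 (log2 fold change 0.21, standard error 0.051, adjusted p = 0.0502). The subunits of GINS did not show one size of difference. GINS4 had a log2 fold change of 0.16 (adjusted p = 0.100), while GINS2 and GINS3 had 0.022 and 0.0068, with overlapping libraries. MCM10, a scaffold that helps the helicase start, had 0.11 (adjusted p = 0.185).

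All 6 subunits of the MCM2 to MCM7 ring had both EC359 libraries above both vehicle libraries, as did 26.1% of all tested genes. MCM5 stood first, with 3212 and 3355 normalized counts with vehicle and 3782 and 3843 with EC359 (log2 fold change 0.22, standard error 0.040, adjusted p = 0.0169). MCM4 had 9146 and 9449 with vehicle and 10126 and 10187 with EC359 (log2 fold change 0.13, adjusted p = 0.0556). MCM3 had 7445 and 7637 against 8308 and 8122 (log2 fold change 0.12, adjusted p = 0.0672). In these subunits the gap between treatments was wider than the gap between replicates. MCM2 had 5536 and 5943 against 6194 and 6391 (log2 fold change 0.13, adjusted p = 0.0956), so that its vehicle libraries lay farther apart than the upper of them lay from the lower EC359 library. MCM6 had 3124 and 3317 against 3367 and 3348 (log2 fold change 0.060, adjusted p = 0.452), and the same held for its vehicle libraries. MCM7 had 12184 and 12317 against 12656 and 12792 (log2 fold change 0.055, adjusted p = 0.327). Without vehicle replicate 1 the log2 fold change was 0.083 for MCM2 and 0.018 for MCM6. None of the 6 was called with edgeR's quasi-likelihood test, DESeq2 or limma voom, whereas edgeR's exact test called MCM5, and with the GC trend removed all but MCM6 were called.

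**Figure D2:**
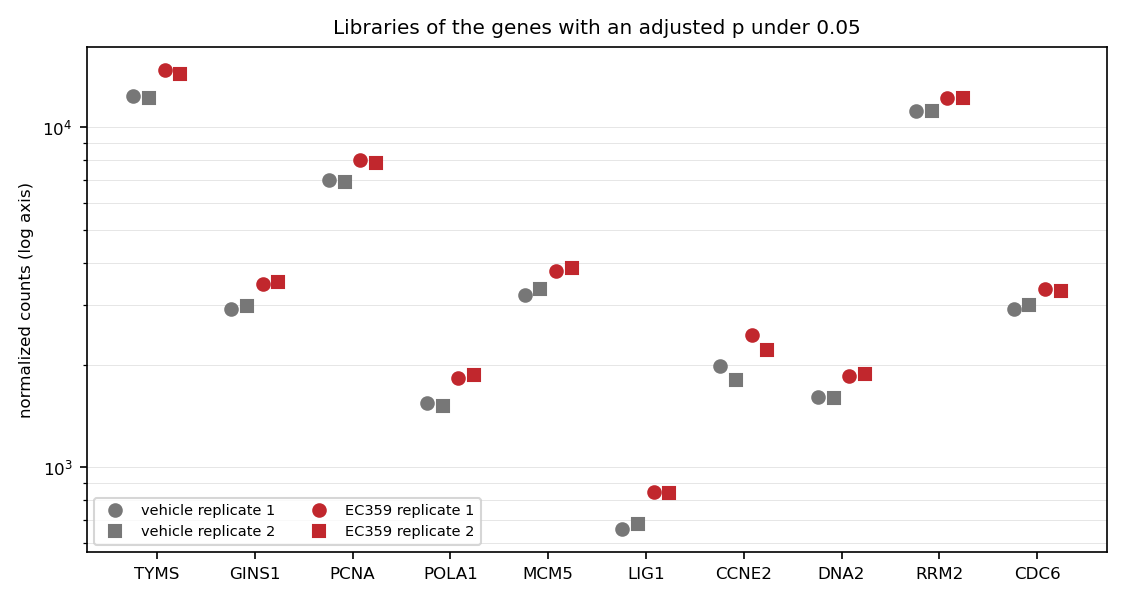
Normalized counts on a log axis in each of the 4 libraries for the 10 genes with an adjusted p under 0.05, ordered by adjusted p, with vehicle in grey, EC359 in red, circles for replicate 1 and squares for replicate 2. In each gene both red points lie above both grey points, by 9.36% (RRM2) to 25.9% (LIG1) in the fitted fold.

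Origin recognition and licensing genes showed the smallest group median but that of the RPA genes, 0.055 over 9 genes. CDC6, which helps load the MCM ring, had 2911 and 3011 normalized counts with vehicle and 3340 and 3306 with EC359 (log2 fold change 0.17, standard error 0.040, adjusted p = 0.0474). Its partner CDT1 had a larger log2 fold change of 0.22 but overlapping libraries, at 981 and 1302 with vehicle and 1262 and 1403 with EC359 (standard error 0.11, adjusted p = 0.265). GMNN encodes geminin, which blocks CDT1 after licensing, and had 0.11 (adjusted p = 0.261). The 6 subunits of the origin recognition complex ran from -0.078 for ORC5 to 0.11 for ORC3, with none at an unadjusted p under 0.05. ORC3 had 1468 and 1400 against 1543 and 1563 (adjusted p = 0.242), and ORC5 had 2037 and 2003 against 1939 and 1887 (adjusted p = 0.367), both without overlap. ORC2 had 0.055, ORC4 0.028, ORC6 0.017 and ORC1 -0.0049.

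Primase and the replicative polymerases had a group median of 0.15 over 9 genes. In 8 of them both EC359 libraries lay above both vehicle libraries, as in 26.1% of all tested genes. POLA1, the catalytic subunit of polymerase alpha that begins each new strand, had 1543 and 1516 normalized counts with vehicle and 1832 and 1867 with EC359 (log2 fold change 0.27, standard error 0.049, adjusted p = 0.0140). POLE, the catalytic subunit of polymerase epsilon, which copies mainly the leading strand, had 2400 and 2525 against 2717 and 2753 (log2 fold change 0.15, standard error 0.045, adjusted p = 0.0817). Among the other subunits, POLA2 had 0.15, POLE2 0.19, PRIM1 0.18, PRIM2 0.089, POLD1 0.18 and POLD3 0.13 on the log2 scale, with adjusted p from 0.0848 to 0.417. POLD2, an accessory subunit of polymerase delta, went the other way. It had 5178 and 5433 with vehicle and 4859 and 5016 with EC359, without overlap (log2 fold change -0.10, standard error 0.039, adjusted p = 0.155). It was the 1 gene of the 55 that was lower at an unadjusted p under 0.05.

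PCNA, the sliding clamp that holds polymerases on DNA, had 6995 and 6898 normalized counts with vehicle and 8024 and 7848 with EC359 (log2 fold change 0.19, standard error 0.033, adjusted p = 0.0121). It missed the threshold of 0.01, and it was called with DESeq2 (adjusted p = 0.00453) and when scaled by total counts alone (adjusted p = 0.00682). The RFC genes encode the loader that opens the clamp. RFC3 had 3158 and 3196 against 3577 and 3438 (log2 fold change 0.14, standard error 0.040, adjusted p = 0.0748). RFC4, RFC2 and RFC5 had 0.13, 0.12 and 0.096, without overlap, and RFC1, the large subunit, had 0.027 with overlapping libraries.

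The 3 genes of RPA, which coats single-stranded DNA, had the lowest median of any role, 0.046. RPA2 had 2522 and 2537 normalized counts with vehicle and 2662 and 2655 with EC359 (log2 fold change 0.072, standard error 0.042, adjusted p = 0.349). RPA1 had 4779 and 4683 against 4934 and 4837 (log2 fold change 0.046, standard error 0.036, adjusted p = 0.492). RPA3 had -0.048, with overlapping libraries.

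In contrast, the 3 genes that finish Okazaki fragments, the short pieces of the lagging strand, had a group median of 0.22. All 3 had EC359 above vehicle without overlap, as did 26.1% of all tested genes. LIG1, the ligase that seals the pieces, had the largest difference of the 55 genes, with 656 and 680 normalized counts with vehicle and 845 and 837 with EC359 (log2 fold change 0.33, standard error 0.065, adjusted p = 0.0207). DNA2, a nuclease and helicase that trims long flaps, had 1606 and 1600 against 1856 and 1886 (log2 fold change 0.22, standard error 0.048, adjusted p = 0.0301). FEN1, the flap endonuclease, had 4840 and 5033 against 5337 and 5448 (log2 fold change 0.13, adjusted p = 0.0782). Whether groups of roles differ from each other was not tested.

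Among the regulators of S-phase entry, CCNE2 stood apart. It encodes cyclin E2, which activates CDK2, and had 1985 and 1803 normalized counts with vehicle and 2442 and 2219 with EC359 (log2 fold change 0.30, standard error 0.062, adjusted p = 0.0254). Opposite exons cover 37.1% of its annotated exon bases, among them those of INTS8, which had a log2 fold change of -0.12 (adjusted p = 0.225). CCNE1, which encodes cyclin E1, had 301 and 345 with vehicle and 333 and 357 with EC359, with overlap (log2 fold change 0.094, standard error 0.099, adjusted p = 0.631). The E2F genes encode the factors that switch S-phase genes on (E2F1, E2F2) or off again (E2F7, E2F8). E2F1 had 1097 and 1154 with vehicle and 1075 and 1050 with EC359, below it without overlap (log2 fold change -0.083, standard error 0.059, adjusted p = 0.453). E2F2 was rare, at 66.7 and 72.3 against 74.3 and 70.0, and overlapped (log2 fold change 0.055, standard error 0.18, adjusted p = 0.902). E2F7 had 4966 and 4781 against 5064 and 5050 (log2 fold change 0.053, standard error 0.036, adjusted p = 0.432). E2F8 had 517 and 456 against 579 and 541 (log2 fold change 0.20, standard error 0.085, adjusted p = 0.202). Without vehicle replicate 2 the log2 fold change of E2F8 was 0.11 and that of E2F7 0.021, and without vehicle replicate 1 that of CCNE1 was 0.00059 and that of E2F2 -0.0017. No E2F gene had an adjusted p under 0.05, and the standard error of E2F2 leaves its difference undetermined at this depth.

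The chromatin assembly factor CAF-1 deposits histones behind the fork. Its large subunit CHAF1A had 1963 and 2083 normalized counts with vehicle and 2270 and 2390 with EC359 (log2 fold change 0.20, standard error 0.051, adjusted p = 0.0520). Its middle subunit CHAF1B had 859 and 770 against 973 and 873 (log2 fold change 0.18, standard error 0.078, adjusted p = 0.215), and its log2 fold change was 0.099 without vehicle replicate 2 and 0.100 without EC359 replicate 1. Both had EC359 above vehicle without overlap. UHRF1, which brings the maintenance DNA methyltransferase to new DNA, had 0.092 and overlapping libraries (adjusted p = 0.455). Of the 50-base windows of UHRF1, 26.6% also occur in annotated transcripts of genes elsewhere in the genome, and its value is uncertain.

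Levels between genes were compared per length, as CPM per kilobase of the union of annotated exons. With vehicle, TYMS (179 ± 2.01, SD, n = 2) and PCNA (175 ± 1.74, SD, n = 2) had the highest levels of the 55, and the difference between them was not tested. RRM1 (92.8), MCM7 (87.5) and FEN1 (79.6) came next, and LIG1 (2.09) and E2F2 (0.451) were lowest. With the length of the longest transcript, TYMS and PCNA stayed first and E2F2 last, whereas RRM2 (108) moved above FEN1 (86.8) and E2F8 (4.65) below LIG1 (5.50). The MCM ring, which holds 1 copy of each subunit, spanned from 87.5 for MCM7 through MCM3 (73.3), MCM2 (43.1), MCM4 (33.5) and MCM6 (27.6) down to 16.0 for MCM5. By that length, MCM7 (141) stayed highest and MCM5 (25.3) lowest in the ring, and MCM4 (60.6) moved above MCM2 (59.2). Reads were counted on RefSeq genes, but both lengths come from GENCODE, with 7268 and 4599 bases for MCM5 and 4135 and 3753 for MCM6. Mean normalized counts with vehicle were 3283 for MCM5 and 3221 for MCM6, so the order of this pair rests on these lengths. GINS3 (4.83) was the lowest of the GINS genes under both lengths, and ORC4 (6.24) the lowest of the ORC genes. Cyclin E2 had the higher level of the cyclin E pair, with 15.3 for CCNE2 and 4.65 for CCNE1.

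**Figure D3:**
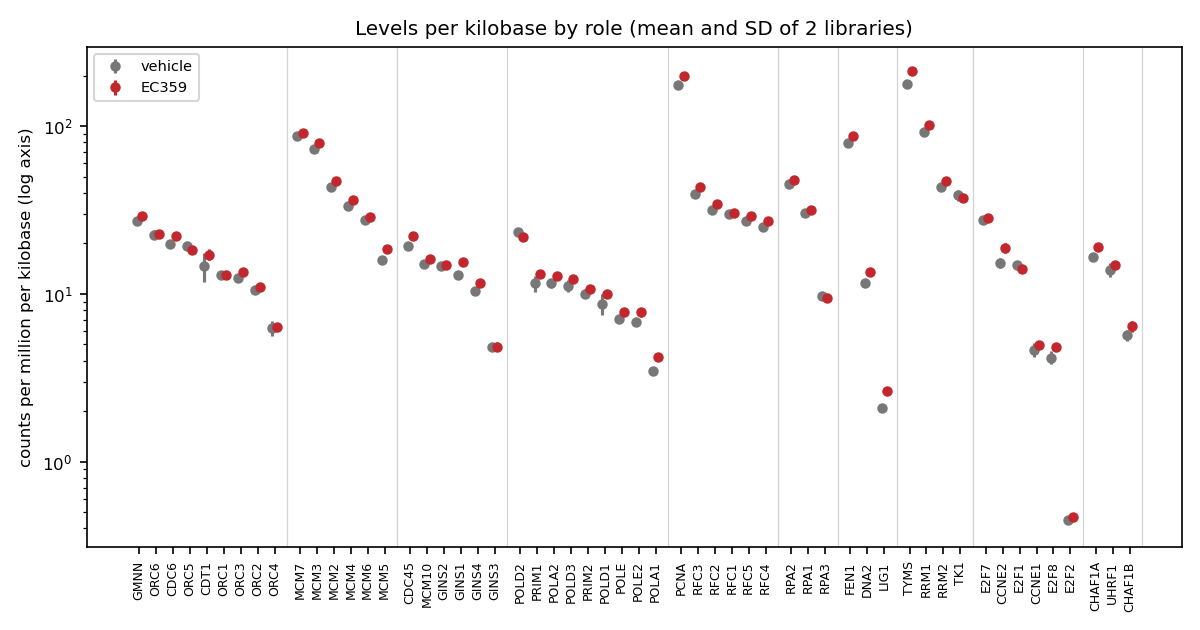
Level of each of the 55 genes in CPM per kilobase of exon union, on a log axis, as mean and SD of 2 libraries, with vehicle in grey and EC359 in red, grouped by role and ordered by level. The spread between genes, from 0.451 (E2F2) to 179 (TYMS) with vehicle, is far wider than the step between treatments.

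Other genes of the same processes were examined from lists that hold none of the 55. Over all tested genes, 0.299% were called higher and 0.795% lower. At an unadjusted p under 0.05, 10.7% of all tested genes were higher and 11.0% lower. These shares stand beside each list below. Of 29 other licensing, fork and checkpoint-mediator genes, edgeR's quasi-likelihood test called 2 higher and 0 lower, and the median log2 fold change was 0.13. At an unadjusted p under 0.05, 15 of them were higher and 1 lower, which was CDCA7, named here after its values were seen (log2 fold change -0.25, adjusted p = 0.0192). DESeq2 called 3 higher and 0 lower, limma voom 2 and 0, and edgeR's exact test 4 and 1 (CDCA7). CLSPN, which encodes the checkpoint mediator claspin that travels with the fork, had 2120 and 1996 normalized counts with vehicle and 2630 and 2599 with EC359 and rose (log2 fold change 0.35, adjusted p = 0.00447). DSCC1, a subunit of an alternative clamp loader, had 905 and 912 against 1232 and 1148 and rose too (log2 fold change 0.39, adjusted p = 0.00865). With no filter on low counts, or without either EC359 library, neither was called. Of 12 other chromatin factors, none was called and the median was 0.066. HELLS, a chromatin remodeler, had 0.34 (adjusted p = 0.0170) and HAT1, which acetylates new histones, 0.17 (adjusted p = 0.0244), and 4 were higher and 1 lower at an unadjusted p under 0.05. Of these chromatin factors DESeq2 and limma voom called 0, and edgeR's exact test called HELLS and HAT1.

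The lists farther from the fork did not share this median. Of 23 other regulators of the passage from G1 to S, 22 were tested, none was called and the median was -0.033. RBL1, a pocket protein that binds E2F, had 0.26 (adjusted p = 0.0118), MYBL2 also had 0.26 (adjusted p = 0.0203), and 5 were higher and 4 lower at an unadjusted p under 0.05. Of 19 other nucleotide supply genes, none was called and the median was -0.0024, and 2 were higher and 5 lower at an unadjusted p under 0.05. Both genes first in adjusted p had a lower mean, NME1 with -0.26 (adjusted p = 0.0109) and IMPDH2 with -0.17 (adjusted p = 0.0123). DESeq2 called 1 of the regulators higher (RBL1) and 2 of the nucleotide supply genes lower (NME1, IMPDH2), and limma voom called 0 of the regulators and 1 of the nucleotide supply genes, which was lower (IMPDH2). With edgeR's exact test 2 regulators were called higher (RBL1, MYBL2), and 2 nucleotide supply genes were called lower (NME1, IMPDH2) and 1 higher (DCK).

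Genes of G2 and mitosis, which mark the phases after replication, lay on the other side. Their median log2 fold change was -0.11 over 25 genes, with 4 called lower and 1 higher. Of all tested genes, 0.795% were called lower and 0.299% higher. CCNB1, the mitotic cyclin, had 14568 and 14147 normalized counts with vehicle and 11264 and 11192 with EC359 and fell (log2 fold change -0.35, adjusted p = 0.000624). CDC20, KIF20A and PTTG1 also fell, with -0.32, -0.40 and -0.31 (adjusted p = 0.00214, 0.0016 and 0.00332). CDK1, the kinase partner of CCNB1, rose instead, by 0.20 on the log2 scale (adjusted p = 0.00638), a call that was lost with no filter on low counts. Without either EC359 library none of the 25 was called. Summed over the list, these genes made up 8005 and 7876 CPM with vehicle and 7793 and 7717 with EC359. The part of the cell cycle distribution in the values of the 55 genes was not tested.

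**Figure D4:**
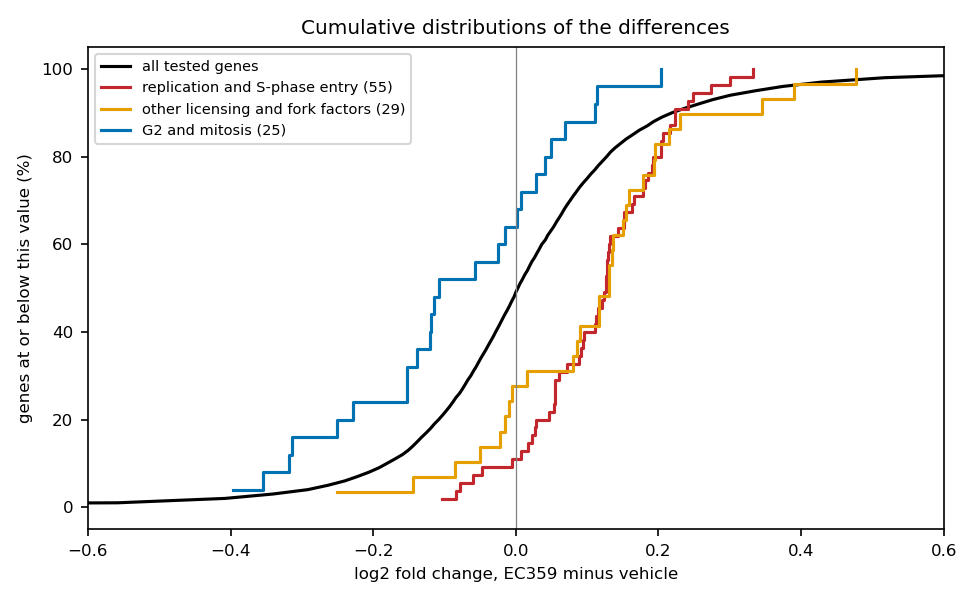
Cumulative share of genes (%) at or below each log2 fold change (EC359 minus vehicle) for the 55 replication and S-phase entry genes (red), 29 other licensing and fork genes (orange), 25 G2 and mitosis genes (blue) and all 12706 tested genes (black). The red and orange curves lie right of the black one around their medians of 0.13, and the blue curve lies left of it around -0.11.

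Base composition moved with the replicates. Across the 55 genes, the log2 difference between vehicle replicates 2 and 1 had a Spearman correlation of 0.66 with the GC content of the transcript, and 0.47 across 10945 tested genes with an annotated transcript. For EC359 replicates 2 and 1 the correlations were 0.39 and 0.35. The log2 fold change between treatments had -0.050 across the 55 genes and -0.049 across all. These genes share the same 4 libraries, and the correlations are descriptions. CDT1 and POLD1, the GC-richest of the 55 at 64.3% and 64.8%, had the widest log2 gaps between the vehicle libraries, and POLD1 had 1095 and 1340 normalized counts there. With each library's trend against GC content removed, the median of the 55 genes was 0.12, and 21 of them were called higher and 0 lower, where 421 of all tested genes were called higher and 542 lower.

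**Figure D5:**
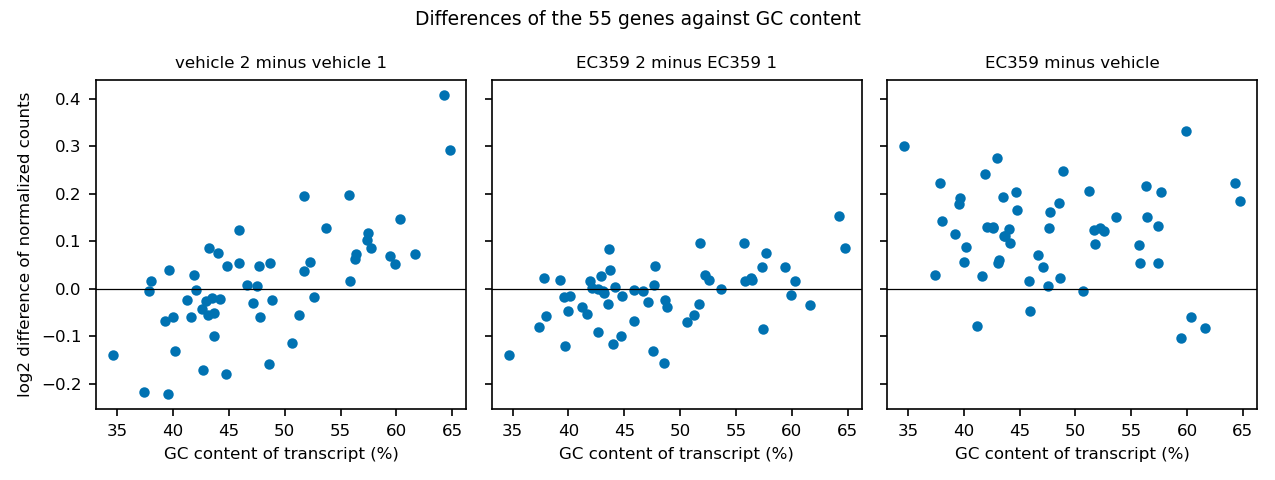
Log2 difference of normalized counts against the GC content of the transcript (%) for the 55 genes, between the vehicle replicates (left), the EC359 replicates (middle) and the treatments (right). Points climb with GC content on the left and in the middle, with correlations of 0.66 and 0.39, and show no slope on the right, with -0.050.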

How the data were processed

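RNA of ES2 cells was sequenced as single-end reads from stranded mRNA libraries, 2 per treatment. TopHat2 2.0.8b placed the reads on hg19, and HTSeq assigned them to NCBI RefSeq genes. The authors deposited the resulting raw counts, 1 value per symbol. Reads with several alignments were kept out of these counts. Summary rows that name no gene were left out of all steps. Reads on no gene made up 10.9% to 12.0%, and reads on several genes 0.852% to 0.879%, of reads aligned once.

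Genes were filtered with filterByExpr (minimum count 10, minimum total 15), scaled with TMM and compared with the quasi-likelihood test of edgeR 4.0.16 in R 4.3.3, with Benjamini-Hochberg adjustment over 12706 genes. The standard error was taken as the size of a log2 fold change over the root of its F statistic. DESeq2 1.42.0, edgeR's exact test and limma 3.58.1 were alternatives. The test was checked on simulated counts. Chi-square over degrees of freedom between replicates was 3.81 (vehicle) and 2.72 (EC359), above sampling noise, and each library counted as 1 replicate.

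Places, lengths and GC content came from GENCODE on GRCh37 (hg19), and promoters from RefSeq. Of the symbols, 82.4% matched GENCODE, and 86.1% of tested genes had a GC content. Genes given full statistics were those called, the 2 of each role with the lowest adjusted p, the 3 largest differences in each direction among genes with a mean of at least 50 normalized counts, the MCM ring, cyclin E and E2F. The 55 genes and the other lists were chosen with earlier results of these data known.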

Additional observations from a re-analysis of the deposited data

How the results depend on the processing

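The 55 genes kept a positive median log2 fold change, 0.11 to 0.15, in all 12 alternative fits to the 4 libraries and in the 4 fits without a library. The number called depended on the settings, from 2 higher and 0 lower of 139 called genes (38 higher) as reported. Brackets give how many of all called genes were higher. An adjusted p under 0.05 gave 10 higher of 549 genes (213 higher), and an unadjusted p under 0.01 gave 21 of 1255 (547 higher). A minimum absolute log2 fold change of 1 left 0 of 2 (0 higher). DESeq2 called 4 higher of 204 (51 higher), and edgeR's exact test 10 of 568 (235 higher). No filter gave 1 of 61 (17 higher), with more genes tested. With the GC trend removed, 21 were higher of 963 (421 higher). A replicate block, with the number as a term, gave 22 higher and 1 lower (POLD2) of 1539 (692 higher). With the GC trend also removed it gave 27 higher and 1 lower of 1898 (916 higher). The labels do not say that a number marks a shared batch, and the same-numbered libraries deviated together with a correlation of 0.11 over all tested genes and 0.57 over the 55. Leaving out 1 library at a time gave 0 to 11 higher, of 0 to 539 called genes. The cause of these changes was not tested. For the 30 genes given full statistics, 61 of 360 values in the alternative fits passed the threshold where the reported one did not, 1 no longer passed, and no called value changed sign. Of the 55, 5 to 9 had a lower mean, depending on the fit. With 2 libraries per treatment, the standard error of a rare gene such as E2F2 (0.18) exceeded the median difference.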
